A study of Homo sapiens with 5 samples.

Results

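The dCas9-BFP-DNMT1 library was compared with the dCas9-BFP-EGFP library, 1 library each, which are 2 of the 5 RNA libraries of the series. The pair was chosen by the fusion partner named in the sample titles. HEK293T cells, a human embryonic kidney line, were transfected with 1 ug of plasmid, 500 ng of it for 5 sgRNAs that target the uPA promoter (the gene is listed as PLAU) and 500 ng for the dCas9 vector. BFP-positive cells were sorted and RNA was taken at 48 h. Both groups carried the same guides, the same nuclease-dead Cas9 (dCas9), the same blue fluorescent protein (BFP) and the same PGK promoter driving the fusion. They differed in the partner at the end of the fusion, which was the catalytic domain of human DNMT1 in one group and EGFP, a green fluorescent protein, in the other. The study reports a weaker initial BFP signal in microscopy for the DNMT1 fusion than for its other fusions. Whether the amount of fusion protein differed between these 2 libraries was not tested.

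The other 3 libraries, also 1 each, were dCas9-BFP-DNMT3A, dCas9-BFP-DNMT3B and pUC19. The first 2 received the same guides, and pUC19 is a plasmid with neither dCas9 nor a guide and no BFP, so whether those cells were sorted in the same way is unclear. They are used below to show whether the DNMT1 or the EGFP library stood apart, and DNMT3A and DNMT3B also give the spread between libraries in alternative fits. The study describes this DNMT1 fusion as without de novo methylation activity, and methylation was not measured in these libraries, so the pair compares 2 fusion partners and not methylation with its absence. The cells were a transiently transfected pool, and fewer cells expressing a gene and less RNA per cell cannot be told apart in such bulk samples.

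DNMT1 is the maintenance DNA methyltransferase, which copies CpG methylation onto the new strand after replication, while DNMT3A and DNMT3B methylate DNA de novo. Heat shock proteins, named repeatedly below, are chaperones that hold or refold damaged proteins, and most are under the control of the transcription factor HSF1. HSF1 binds repeats of the letters GAA and their complement TTC in the promoters of its targets.

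The DNMT1 library held 27720000 reads assigned to genes and the EGFP library 26250000 (rounded to the nearest 10000), and the 5 libraries ranged from 26250000 to 36140000. At these totals 3 reads, taken as the smallest amount a library could show, were 0.108 and 0.114 RPM (reads scaled to the library total). Of 19716 genes with a read in any library, 18831 had one in this pair and were tested. The summed level of 9 markers of HEK293 cells was 841 TPM (read counts divided by transcript length and scaled to a fixed sum) in the DNMT1 library and 861 in the EGFP library. Most of either sum was VIM, at 463 and 502 TPM. The 6 fibroblast markers summed to 8.91 and 8.07 TPM and the 4 hepatocyte markers to 0.8 and 1.05 TPM, in the same order. CD3E, COL1A2, KRT14 and TP63 had 0 reads in both, the 3 squamous markers summed to 0 and 0.04 TPM, and none of the 28 markers fixed for other cell types or HEK293 cells was called. Blood markers summed to 18.5 and 14.7 TPM, most of it LYZ and CD68, with PTPRC at 0.164 and 0.163 TPM.

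A gene was called when its read counts differed at an adjusted p of at most 0.001 (exact binomial test given the 2 totals, Benjamini-Hochberg) and its TPM + 0.1 differed at least 2-fold. With 1 library per group this test compares 2 libraries and not 2 conditions. Its p-values and the 95% exact intervals given in brackets cover the sampling of reads alone. Genes with many reads pass the p limit at smaller differences, so counts without the fold limit depend on depth as well.

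The 5 guides are shown first because they are what both libraries shared at the target. Each is printed 5′ to 3′ on its own strand in lower case with the adjoining PAM, the 3 bases that Cas9 requires, in capitals, and was found on chromosome 10 of GRCh37.
T1: gtgagcgttgcggaagcacgCGG
T2: gagccgggcgggagagggagGGG
T5: gggacaggtggaccctggccCGG
T4: gcccggggatctcaggaccgCGG
T3: gagtcaaggcgccccgtcccGGG

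T1 (chr10:75670761-75670780, plus strand) and T2 (chr10:75670819-75670838, plus strand) lie upstream of PLAU, with midpoints 120 and 62 bases before its start site at 75670890. T5 (chr10:75670920-75670939, minus strand) lies in exon 1, 39 bases after that site. T4 (chr10:75670987-75671006, minus strand) and T3 (chr10:75671093-75671112, plus strand) lie in intron 1, 106 and 212 bases after it.

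PLAU, which encodes the urokinase plasminogen activator, did not differ detectably between the fusions. It had 6 reads in the DNMT1 library and 4 in the EGFP library, or 0.181 and 0.132 TPM. The ratio was 1.37 with an interval of 0.324 to 6.59 (adjusted p = 0.857, exact binomial test), which holds lower and higher levels alike, so a difference was not detectable at this depth. Both values were far below the 106 reads and 2.48 TPM of pUC19, and the DNMT3A and DNMT3B libraries were also low, at 0.176 and 0.0331 TPM. Of 8 tested genes of the plasminogen activator system, 0 were called higher and 1 lower, against 0.483% and 0.993% of all genes. With TPM + 1 in place of TPM + 0.1 the lower call was lost. PLAUR, the urokinase receptor, was at 11.4 TPM with DNMT1 and 8.18 with EGFP, and LRP1, a clearance receptor for inhibitor complexes, at 16 and 12.4, and neither was called. The median log2 ratio of this list was 0.10, and -0.08 with genes at 0 in one library set to their bound.

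The DNMT1 row identified the library. It held 3.53% of all reads of the DNMT1 library (95% Wilson interval 3.53 to 3.54%) and 0.038% of those of the EGFP library. Its level was 14582 TPM against 162.8, which is 89.6-fold higher (87.8 to 91.4), and the other 3 libraries lay between 155.8 and 175.5 TPM. The reads of the plasmid's catalytic domain and of the cell's own DNMT1 fall on 1 row and cannot be told apart.

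The other genes that write, read or erase DNA methylation showed no call. Of 20 tested members of this list only DNMT1 passed, against 0.483% of all genes called higher. DNMT3A was at 18.1 TPM with DNMT1 and 18.9 with EGFP, and DNMT3B at 34.2 and 39.3. The next members by size of the ratio were ZBTB38, a reader of methylated DNA, at 7.32 against 12.4 TPM, and TET2, which oxidises methylcytosine, at 10.6 against 16.9 TPM. Leaving the fold aside, 8 of the 20 were lower and 1 higher at an adjusted p of at most 0.001, against 19% and 8.39% of all genes. The list's median log2 ratio was -0.21, where that of all genes was -0.13. With the trend of the ratio with GC content and transcript length removed, these were -0.06 and -0.015. GAPDH, TGFBR3, SH2D3C and FAM221A, loci whose methylation the study examined, were not called. GAPDH stood at 5672 and 5504 TPM, TGFBR3 at 14.3 and 19.2, SH2D3C at 1.28 and 0.755 and FAM221A at 6.24 and 6.66, each with DNMT1 first.

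Over all genes, 278 of 18831 were called (1.48%), 91 higher in the DNMT1 library (0.483%) and 187 lower (0.993%). Under scaling by edgeR's TMM factors, which moved the median log2 ratio from -0.13 to -0.05, the calls were 137 higher and 125 lower, so the split by direction depends on the scaling. At the larger sizes, 16 of the higher and 26 of the lower genes differed at least 4-fold. The remaining pairs of libraries gave 45 calls (DNMT3A against DNMT3B) to 1793 (DNMT3A against pUC19), and only the DNMT3A and DNMT3B libraries were closer to each other than the DNMT1 and EGFP libraries were.

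**Figure D1:**
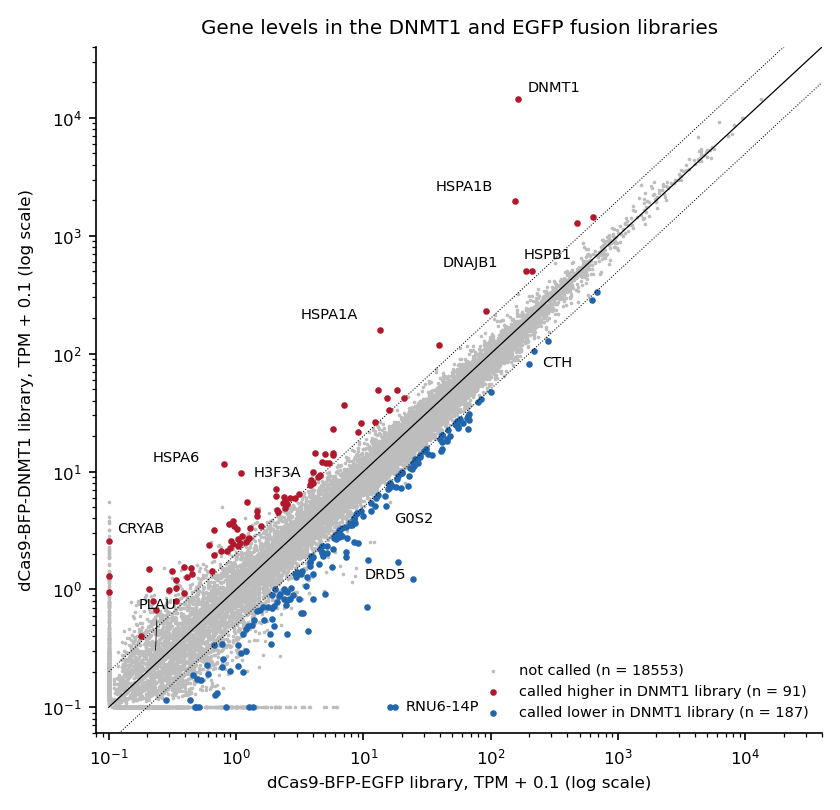
Level of each of the 18831 genes in the EGFP library (x axis) and the DNMT1 library (y axis), as TPM + 0.1 on log scales, with 1 point per gene. The solid line marks equal levels and the dotted lines a 2-fold difference. The labelled genes DNMT1, HSPA1B, HSPA1A, HSPA6 and CRYAB lie far above the line, as do some uncalled genes of few reads, and PLAU lies near it at low level.

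Heat shock proteins and co-chaperones were the group with the most calls upward. Of 21 members, all tested, 6 were called higher and 0 lower, against 0.483% and 0.993% of all genes. A log2 ratio above 0 was found for 20, where 35.3% of all genes did, and the median was 0.68. At an adjusted p of at most 0.001 without the fold limit, 20 of the 21 were higher. Earlier results of these data were known when the list was drawn up.

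HSPA1B and HSPA1A encode the main inducible HSP70. HSPA1B was at 1961 TPM in the DNMT1 library and 155.2 in the EGFP library, and at 129.6, 234.0 and 251.5 with DNMT3A, DNMT3B and pUC19. It was 12.6-fold higher with DNMT1 than with EGFP (12.3 to 13.0). HSPA1A was at 160.2 TPM with DNMT1 and 13.3 with EGFP, a 12.0-fold difference (10.8 to 13.4), and at 10.5, 18.8 and 19.4 in the others. The DNMT1 library stood apart and the other 4 lay between 129.6 and 251.5 TPM for HSPA1B. These genes share 75.1% (HSPA1A) and 73.6% (HSPA1B) of their 50-base windows with another gene, mainly each other. Since the authors kept uniquely mapped reads, the levels are partial, the part of each transcript covered was 47.1% and 54.1% in the DNMT1 library, and the division between the genes is uncertain.

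HSPA6, an HSP70 gene that is silent in most unstressed cells, had 379 reads with DNMT1 and 21 with EGFP. The levels were 11.5 and 0.698 TPM, a 16.5-fold difference (10.6 to 26.9), against 1.15 (DNMT3A), 1.47 (DNMT3B) and 0.235 (pUC19). Reads covered 80.4% of its transcript in the DNMT1 library and 28.6% in the EGFP library. Of the 50-base windows of HSPA6, 45.8% are also found in HSPA7. CRYAB, which encodes the small heat shock protein alpha B-crystallin, had 21 reads with DNMT1 and 0 with EGFP, so that it was at least 6.38-fold higher against a floor of 3 reads per library. Its level was 2.46 TPM with DNMT1 and between 0.0908 and 0.643 in the other 3 libraries.

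Among the co-chaperones, DNAJB1, the HSP40 partner of HSP70, was at 499.8 TPM with DNMT1, 188.4 with EGFP, 264.7 with DNMT3A, 321.4 with DNMT3B and 92.2 with pUC19. Its ratio was 2.65 (2.57 to 2.74). HSPB1, the small heat shock protein HSP27, was at 501.5 TPM with DNMT1 and 209.3 with EGFP, a ratio of 2.40 (2.28 to 2.52), and between 216.1 and 270.5 in the others. For both genes the DNMT1 library was the highest of the 5, but neither was 2-fold above the DNMT3B library. HSPB1 was no longer called once the trend with GC content and length was removed, with a log2 ratio of 0.92 in place of 1.26.

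The 15 members that were not called had smaller differences. HSPH1, a nucleotide exchange factor for HSP70, was at 319.3 against 163.4 TPM, a ratio of 1.95 (1.90 to 2.01), and was called under TMM scaling. HSP90AA1, the inducible cytosolic HSP90, was at 2716 against 1521 TPM, and BAG3, a co-chaperone of HSP70, at 116.4 against 65.2 TPM. HSPA8, the constitutive HSC70, was at 2671 against 1822 TPM. The mitochondrial HSPD1 was at 919.7 against 754.8 TPM, and HSF1 itself at 103.2 against 106.7 TPM, the only member with a ratio under 1. Of these 15, the DNMT1 library was the highest of the 5 for 10, and of all 21 for 16 (76.2%), where it was the highest for 11.9% of all genes tested. Against pUC19 the list's median log2 ratio was 0.65 with DNMT1, 0.32 with DNMT3B, 0.08 with DNMT3A and -0.21 with EGFP. These 4 values share the pUC19 library and are given side by side only.

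The promoters of the called heat shock genes are shown because these genes moved together. The 250 bases before the start site are given from RefSeq (table on GRCh38.p14), on the gene's strand, with the position on GRCh37 where a script found the same bases. Capitals mark GAANNTTC or TTCNNGAA, pairs of heat shock element units, each of which reads the same on both strands. Runs that overlap were joined.
HSPA6 (chr1:161494080-161494329, plus strand): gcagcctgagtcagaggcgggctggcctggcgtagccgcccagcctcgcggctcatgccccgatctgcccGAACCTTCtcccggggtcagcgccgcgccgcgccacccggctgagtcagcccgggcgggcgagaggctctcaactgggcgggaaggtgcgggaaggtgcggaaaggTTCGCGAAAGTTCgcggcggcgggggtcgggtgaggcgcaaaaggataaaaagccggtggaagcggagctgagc
HSPA1A (chr6:31783070-31783319, plus strand): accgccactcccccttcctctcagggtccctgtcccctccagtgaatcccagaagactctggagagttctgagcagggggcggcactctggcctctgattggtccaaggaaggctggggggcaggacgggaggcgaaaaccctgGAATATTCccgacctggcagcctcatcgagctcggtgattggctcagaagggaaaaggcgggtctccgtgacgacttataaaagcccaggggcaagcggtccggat
HSPA1B (chr6:31795265-31795514, plus strand): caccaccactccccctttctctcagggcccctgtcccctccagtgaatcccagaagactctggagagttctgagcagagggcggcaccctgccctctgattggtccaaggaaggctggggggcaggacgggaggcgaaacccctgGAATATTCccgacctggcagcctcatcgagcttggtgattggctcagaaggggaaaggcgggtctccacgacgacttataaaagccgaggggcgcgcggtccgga
DNAJB1 (chr19:14629210-14629459, minus strand): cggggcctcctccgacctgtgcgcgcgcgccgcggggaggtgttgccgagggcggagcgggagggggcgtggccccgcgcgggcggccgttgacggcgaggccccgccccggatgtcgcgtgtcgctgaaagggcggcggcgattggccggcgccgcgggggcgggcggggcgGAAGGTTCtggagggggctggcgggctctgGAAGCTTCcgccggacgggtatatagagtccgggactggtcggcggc
HSPB1 (chr7:75931740-75931989, plus strand): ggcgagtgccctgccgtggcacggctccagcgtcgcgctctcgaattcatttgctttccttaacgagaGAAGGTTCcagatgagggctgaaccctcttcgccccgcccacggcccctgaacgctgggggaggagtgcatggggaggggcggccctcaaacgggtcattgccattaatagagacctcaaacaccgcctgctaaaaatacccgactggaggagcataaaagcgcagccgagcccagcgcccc

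All 5 windows held a match. HSPA1A and HSPA1B carried the same 8 letters about 100 bases before the start, from 106 to 99 and from 105 to 98 bases. HSPA6 had 3 matches, the nearest run from 74 to 62 bases before the start, and DNAJB1 had matches from 77 to 70 and from 47 to 40 bases. Of all windows that RefSeq gave, 4053 of 34943 (11.6%) held either motif, and 14.0% of genes had it in at least 1 of their windows. Among the 18 heat shock genes with a window in the table, 12 held it, 5 of the 5 called genes and 7 of the 13 that were not called. No window was found in the table for CRYAB, FKBP4 and HSF1. A match describes these letters only and is not evidence of binding.

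Other genes called higher were a mixed set. Of the 91, 46 reached 5 TPM in the DNMT1 library. EGFP was the lowest of the 5 libraries in 35 of these (76.1%), against 13.6% of the 11068 genes of at least 5 TPM. DNMT1 was the highest in 29 (63.0%), against 7.64%. Part of this excess is set by the call, which needs DNMT1 above EGFP, and by the limit of 5 TPM in the DNMT1 library. Of the 46, only DNMT1, HSPA1A, HSPA1B and HSPA6 were at least 2-fold above all other 4 libraries. Over the 11068 genes of at least 5 TPM in either library, 6 were that far above with DNMT1 and 4 below. The 2 further genes above were SNORA76A and SNORD26, small nucleolar RNAs that were not called. H3F3A, which encodes the histone variant H3.3, was at 9.67 TPM with DNMT1 and 0.987 with EGFP, but at 7.80 with DNMT3A and 0.989 with DNMT3B. DDT, the D-dopachrome tautomerase, was at 36.4 against 6.95 TPM and its neighbour and homologue MIF, a cytokine, at 1447 against 638.8 TPM. The DNMT3A and DNMT3B libraries were close to DNMT1 for both, at 32.9 and 25.6 TPM for DDT and 1451 and 1387 TPM for MIF. PDF, a mitochondrial peptide deformylase, was at 5.41 against 1.13 TPM, again with DNMT3A and DNMT3B near DNMT1 (4.86 and 4.89).

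Several of these genes share transcript sequence with another gene entry, so the split of unique reads between the entries is uncertain. The share of 50-base windows found in another gene was 72.7% for H3F3A, 42.4% for DDT, 61.2% for MIF, 79.0% for PDF and 92.5% for WASH7P. For PDF the gene with most shared windows was COG8, and the transcript searched had 2859 bases against 1180 listed. WASH7P and WASH3P, copies of a WASH complex gene near chromosome ends, were at 22.8 against 5.65 and 14.2 against 4.07 TPM, and DNMT3A and DNMT3B lay above DNMT1 for both genes. TPGS1, a subunit of a tubulin polyglutamylase, was at 7.05 against 1.95 TPM and at 7.68 with DNMT3A. RN7SL1, the RNA of the signal recognition particle, was at 117.8 against 39.1 TPM, and BCYRN1, a small cytoplasmic RNA, at 1278 against 480.4 TPM, below the 1780 TPM of pUC19. PCSK1N, a secretory granule protein that inhibits the proprotein convertase PCSK1, was at 48.8 against 13.0 TPM and was the highest of the 5 with DNMT1.

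In genes called lower the EGFP library was often the highest of the 5, which the call itself favours. Of the 187, 104 reached 5 TPM in the EGFP library. For 80 of these 104 (76.9%) EGFP was the highest of the 5 libraries, where it was so for 21.4% of the 11068 genes of at least 5 TPM. For 51 (49.0%) DNMT1 was the lowest, where it was so for 31.4%. Part of this excess is set by the call, which needs EGFP above DNMT1, and by the limit of 5 TPM in the EGFP library. Without that limit EGFP was the highest for 74.3% of the 187 and DNMT1 the lowest for 53.5%. Over all genes tested these shares were 23.6% and 25.3%. EGFP was at least 2-fold above all other 4 libraries for 12 of the 104, and DNMT1 at least 2-fold below all others for 3 (MRM1, LONRF1 and C12orf76).

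DRD5, a dopamine receptor, was at 1.68 TPM with DNMT1 and 10.9 with EGFP, which is 6.45-fold higher with EGFP (4.76 to 8.89), and between 0.680 and 3.0 in the others. GDAP1L1, a homologue of a mitochondrial fission gene, was at 2.38 against 9.00 TPM, and G0S2, an inhibitor of triglyceride lipase, at 4.96 against 15.0 TPM. AKAP3, an anchoring protein of sperm, was at 1.44 against 5.62 TPM. In DRD5, GDAP1L1 and G0S2 the DNMT1 library lay within the range of DNMT3A, DNMT3B and pUC19, and in AKAP3 below it, while the EGFP library was more than 2-fold above all others in each. MTRNR2L3, a nuclear copy of mitochondrial ribosomal RNA, followed at 283.6 against 629.2 TPM, with the others between 202.4 and 273.9 TPM, and sharing of its reads with mitochondrial RNA was not tested.

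Among abundant genes with the smallest p, PNRC2, a co-activator of mRNA decay, was at 81.5 TPM with DNMT1 and 200.5 with EGFP. KLHL15, an adaptor of a cullin ubiquitin ligase, was at 15.3 against 41.3 TPM, and ASB1, another such adaptor, at 13.8 against 34.5 TPM. KLHL15 and PNRC2 were lowest of the 5 libraries with DNMT1 and highest with EGFP. BICD2, an adaptor of the dynein motor, was at 28.5 against 65.3 TPM, but DNMT3A (60.9) and DNMT3B (60.3) were near EGFP and pUC19 (25.7) was near DNMT1. DYNC1LI2, a light intermediate chain of dynein, was at 38.6 against 79.5 TPM, with pUC19 at 37.3.

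The largest ratios downward came from transcripts under 200 bases, which numbered 6 of the 187 lower calls (3.21%), 0 of the 91 higher calls and 260 of all genes tested (1.38%). RNU6-14P, a copy of the U6 small nuclear RNA, had 0 reads with DNMT1 and 21 with EGFP, at least 7.67-fold higher with EGFP, and 36 with pUC19. SNORD68, a small nucleolar RNA, had 0 against 13 reads, at least 4.75-fold higher with EGFP. SNORD36A had 1 against 20 reads, SNORA68 1 against 16 and MIR5047 2 against 21. The DNMT3A library was low for all 5, at 2 reads or fewer, and so was DNMT3B, at 3 or fewer. In the pUC19 library the 5 had from 9 (SNORD36A) to 36 (RNU6-14P) reads. The windows of SNORD68, SNORD36A and MIR5047 lie wholly within transcripts of RPL13, RPL7A and DDX5, so reads of the host and of the small RNA cannot be told apart. cDNA of about 240 bp was selected, which is longer than these RNAs, and how the selection acted on them in each library was not tested. Among longer transcripts called lower were LRRC25, a leucine-rich repeat protein of myeloid cells, at 1.8 against 7.25 TPM with pUC19 at 6.81, the antisense RNA FLVCR1-AS1 at 1.97 against 7.14 TPM, and the pseudogene RPL13AP20 at 2.45 against 8.32 TPM. The 54 and 199 reads of LRRC25 covered only 13.7% and 13.3% of its transcript, with DNMT1 first.

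**Figure D2:**
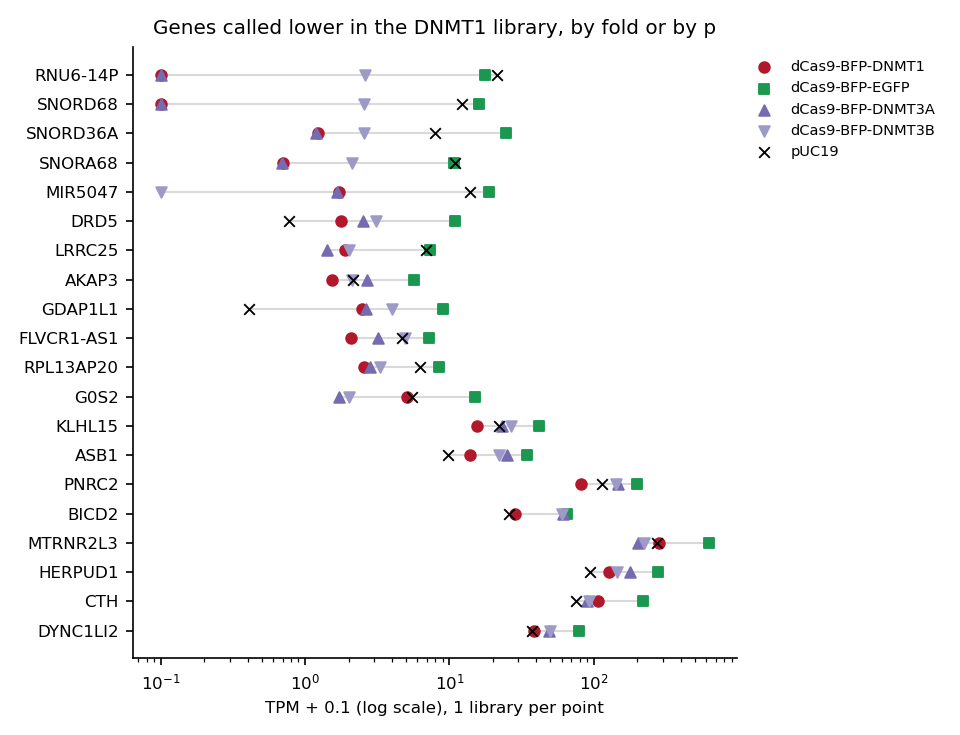
Level of 20 genes called lower in the DNMT1 library, 12 chosen by fold and 8 by p, in the 5 libraries as TPM + 0.1 on a log scale, with 1 point per library and the grey line from the lowest to the highest. EGFP is the highest point for most genes, while the DNMT1 point often lies beside DNMT3A, DNMT3B or pUC19.

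Genes of the integrated stress response, which are switched on by the factor ATF4 when translation is restrained, had a lower median in the DNMT1 library than all genes had. Of 32 tested, 1 was called lower (0.993% of all genes were), 0 higher, and 29 (90.6%) had a log2 ratio under 0, where 64.7% of all genes did. The median was -0.48 (-0.36 after the GC and length trend was removed). CTH, which makes cysteine from cystathionine, was the called member, though not under TMM scaling, at 106.2 TPM with DNMT1, 218.7 with EGFP and between 75.1 and 93.2 in the others. FGF21, a secreted stress hormone, was at 3.09 against 6.22 TPM and MTHFD2, a mitochondrial folate enzyme, at 314.2 against 575.7 TPM, and neither was called. Against pUC19 the list's median log2 ratio was 0.94 with EGFP, 0.38 with DNMT1, 0.39 with DNMT3A and 0.40 with DNMT3B, again with pUC19 shared. The EGFP library was thus the one farthest from pUC19 for this list.

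Genes of the unfolded protein response of the endoplasmic reticulum showed 1 call of 20, to the lower side (0.993% of all genes), and a median log2 ratio of -0.03, or 0.05 under TMM scaling. HERPUD1, a membrane protein of protein degradation there, was at 127.8 TPM with DNMT1 and 279.9 with EGFP. CRELD2, a chaperone-like secreted protein, was at 31.1 against 20.8 TPM and ERN1, a sensor of unfolded proteins, at 8.69 against 12.9 TPM, both without a call. The median of the NRF2 antioxidant genes was -0.13, with 0 of 23 called, and it was 0.02 after the GC and length trend was removed. Of members with at least 5 TPM, those farthest from equal were TXNRD1, a thioredoxin reductase, at 103.8 against 167.1 TPM and the cystine transporter SLC7A11 at 24.3 against 36.1 TPM.

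Among cell cycle genes, all 28 tested G2/M genes had a log2 ratio under 0, with a median of -0.46 and 0 calls. Without the fold limit 27 of the 28 were lower at an adjusted p of at most 0.001, against 19% of all genes. HMMR, a spindle protein, was at 34.0 against 66.6 TPM and KIF20A, a kinesin of cytokinesis, at 63.6 against 108.5 TPM. After the GC and length trend was removed the median was -0.26. Against pUC19 the medians were -0.17 with DNMT1 and 0.27 with EGFP, and 0.06 and 0.02 with DNMT3A and DNMT3B. The 25 S phase genes had a median of -0.17 and 0 calls, and the median was 0.03 after the GC and length trend was removed. The flap endonuclease FEN1 was at 118.9 against 169.9 TPM and CCNE1, cyclin E1, at 23.4 against 17.1 TPM.

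Of 22 p53 targets, 1 was called lower, where 0.993% of all genes were. The list's median was -0.35, or -0.18 after the GC and length trend was removed. PMAIP1, which encodes the apoptosis protein NOXA, was at 47.0 TPM with DNMT1, 99.7 with EGFP and 111.3 with pUC19, and was no longer called under TMM scaling. MDM2, the ligase that degrades p53, was at 44.4 against 69.7 TPM and PHLDA3, a repressor of AKT, at 8.60 against 5.72 TPM, without a call. HEK293T cells carry the SV40 large T antigen, which binds p53.

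Imprinted and germline genes were examined because their silencing depends on DNA methylation. Of 20 imprinted genes tested, 2 were called higher and 0 lower (0.483% and 0.993% of all genes), and the median log2 ratio was -0.02, or 0.04 under TMM scaling. DIRAS3, a maternally imprinted GTPase, was at 1.38 TPM with DNMT1 (28 reads) and 0.108 with EGFP (2 reads), and between 0.669 and 0.878 in the others. PHLDA2, a growth-restraining placental gene, was at 6.03 against 2.27 TPM, and between 5.62 and 6.45 in the others, and was no longer called once the GC and length trend was removed. In both the EGFP library was at least 2-fold under all other 4 libraries. Of 19 germline genes that promoter methylation silences, 1 was called lower (0.993% of all genes), MAGEB2, at 1.24 against 3.92 TPM, with 1.0 to 1.85 TPM in the others, and it was not called in the edgeR and DESeq2 fits. The median of that list was -0.58, and -0.42 with genes at 0 set to their bound, and most of its members had few reads.

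Zinc finger genes named ZNF had 13 lower and 2 higher calls among 507 tested (0.993% and 0.483% of all genes), with a median log2 ratio of -0.34. After the GC and length trend was removed, 3 were called lower and 1 higher and the median was -0.15. ZNF302, ZNF551 and ZNF776 were at 11.8, 6.14 and 11.8 TPM with DNMT1 and 26.9, 14.6 and 24.5 TPM with EGFP. ZNF467 and ZNF865 were the higher calls, at 9.82 against 3.90 and 7.86 against 3.76 TPM. The other 10 lower calls (ZNF441, ZNF280A, ZNF367, ZNF724P, ZNF571, ZNF711, ZNF19, ZNF486, ZNF697 and ZNF235) had log2 ratios from -1.59 to -1.01.

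The remaining lists had 0 or 1 call each (1.48% of all genes were called). Among ribosome biogenesis genes PPAN, an rRNA processing factor, was called higher at 4.54 against 1.37 TPM, but 83.6% of its windows lie in the read-through transcript PPAN-P2RY11. NOLC1, a nucleolar phosphoprotein, at 295.8 against 421.5 TPM and RRP12, an export factor of ribosomal subunits, at 50.4 against 64.8 TPM were not called. Of 84 cytosolic ribosomal proteins 1 was called higher and 0 lower. Without the fold limit 61 were higher and 8 lower (8.39% and 19% of all genes, which include genes of few reads). The median was 0.07, or 0.16 under TMM scaling. RPL21 stood at 2884 against 1899 TPM and RPSA at 2286 against 1622 TPM. Of the 30 glycolysis and hypoxia genes ANKRD37, a target of hypoxia-inducible factor, was called higher at 3.72 against 0.853 TPM, and PFKFB4 (8.12 against 13.0) and VEGFA (33.0 against 44) were not. Of 18 snoRNA host genes SNHG12 was called higher at 33.1 against 15.8 TPM, but not once the GC and length trend was removed, and pUC19 was highest at 58.1 TPM. SNHG20 (11.4 against 19.9) and SNHG4 (16.1 against 20.9) were not called.

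Interferon-stimulated genes (27 tested), immediate early genes (23), genes of cholesterol synthesis (24), replication histone genes (47), oxidative phosphorylation genes (83) and metallothioneins (4) had 0 calls. Under TMM scaling the first changed sign (0.01). The median log2 ratios were -0.07, 0.14, 0.01, 0.12, 0.03 and -0.10 in that order. Of the interferon genes, the antiviral membrane protein IFITM3 was at 12.2 against 16.9 TPM. Of the immediate early factors, KLF6 was at 24.6 against 47.4 TPM and JUNB at 15.6 against 9.86 TPM. INSIG1, which retains the sterol sensor, was at 97.2 against 146.5 TPM and the sterol oxidase MSMO1 at 26.4 against 17.4 TPM. The histone genes HIST1H4C and HIST3H2A were at 32.9 against 16.8 and 17.1 against 10.5 TPM, the complex I subunits NDUFS7 and NDUFS4 at 253.0 against 159.2 and 74.0 against 50.7 TPM, and the metal-binding MT1F and MT2A at 9.21 against 3.88 and 42.5 against 55.5 TPM. HIST1H4C and MT1F were called higher under TMM scaling.

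**Figure D3:**
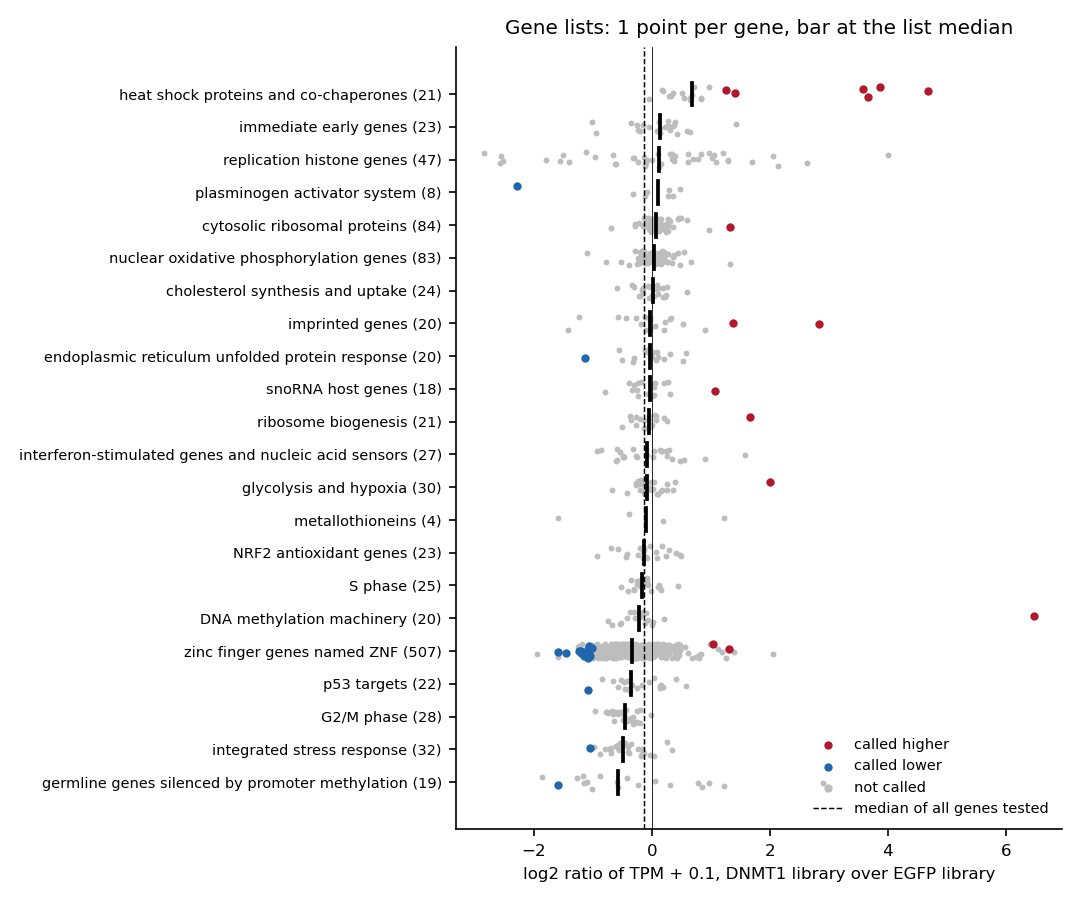
Log2 ratio of TPM + 0.1, DNMT1 library over EGFP library, for the members of the 22 gene lists, with 1 point per gene, the number tested in brackets and a bar at the list median. The dashed line marks the median of all genes (-0.13). The heat shock list is the farthest to the right with 6 called genes. The germline list has the lowest median (-0.58) with 1 called gene. The integrated stress response and G2/M lists come next on the left, with 1 and 0.

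The ratio moved with the composition of the transcripts. Over 15037 genes with at least 20 reads in the pair, the median log2 ratio went from -0.27 in the 1504 genes of lowest GC content (30.7 to 38.7%) to 0.14 in the 1504 of highest (61.9 to 78.8%), with a Spearman rho of 0.299 across genes. These genes share the 2 libraries and are not independent, so no p is given. The median was 0.01 in the 1504 shortest transcripts and -0.22 in the 1504 longest (rho of -0.200). Called genes followed this trend, with a median GC content of 59.7% among the higher, 46.1% among the lower and 48.8% among all. The 1504 genes of highest GC content held 34 of the higher and 5 of the lower calls. After a loess trend on both properties was removed, 98 genes were called higher and 116 lower. HSPA6, HSPA1A and HSPA1B kept log2 ratios of 3.91, 3.59 and 3.70, and DRD5 one of -2.58. The part of the trend in the calls was not tested beyond this.

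**Figure D4:**
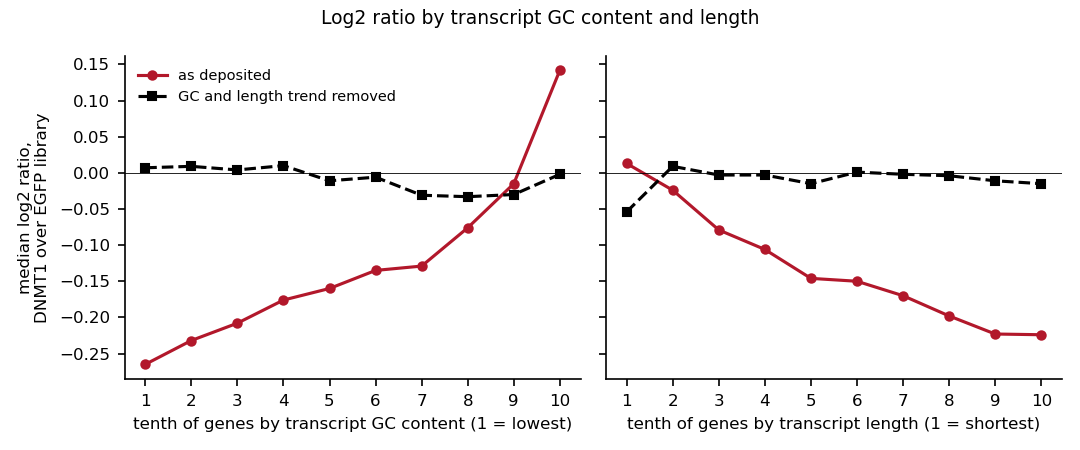
Median log2 ratio, DNMT1 library over EGFP library, in 10 bins of the 15037 genes by transcript GC content (left) and transcript length (right). Red circles are the values as deposited and rise from -0.27 to 0.14 with GC content, and black squares are the values after the loess trend was removed, which lie between -0.05 and 0.01.

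CpG density of promoters was set beside the ratio. Promoters were classed as CpG-rich by their sequence within 500 bases of the start site on GRCh37. Genes with a CpG-rich promoter had a median log2 ratio of -0.12 (n = 11142) and the others of -0.16 (n = 3819), and -0.004 and -0.03 after the GC and length trend was removed. Calls lower made up 0.924% of the first class and 1.73% of the second, and calls higher 0.530% and 0.681%. The observed to expected CpG ratio of the promoter had a rho of -0.010 with the log2 ratio across 14961 genes. Methylation itself was not measured in these libraries.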

How the data were processed

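RNA of sorted HEK293T cells was sequenced on an Ion Proton after poly(A) selection, selection of about 240 bp cDNA and 12 PCR cycles. The authors aligned reads with tmap to RefSeq RNA of hg19 (GRCh37), allowing 3 mismatches and keeping uniquely mapped reads; versions are not given in the sources used here. The deposited read counts per gene are whole and not normalized. The authors also deposited TPM, which are counts divided by transcript length and scaled to a fixed sum, and TPM recomputed from the counts were equal. The deposited tables further give coverage in percent per gene, read here as the part of the transcript with reads. Genes missing from a table were set to 0. Keeping unique reads lowers genes with near-identical copies, and a strand setting was not given in the sources used here, so a gene and an antisense partner cannot be told apart.

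Groups came from the titles. Read counts of the 2 libraries were compared with a two-sided exact binomial test given both totals, with Benjamini-Hochberg adjustment over all genes with a read in either. Calls needed an adjusted p of at most 0.001 and a 2-fold ratio of TPM + 0.1, the limits that the study gives. Such ratios understate changes of low genes. Intervals of TPM ratios are 95% exact (Clopper-Pearson) and cover read sampling only, as does the floor of 3 reads. scipy 1.17.1, edgeR 4.0.16 and DESeq2 1.42.0 were used, and scripts were tested on simulated data. How many cultures went into each library is not given in the sources used here.

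Named genes were the 8 genes fixed by name (PLAU, 3 methyltransferases, TGFBR3, GAPDH, SH2D3C, FAM221A), per direction the 12 called genes of largest ratio with at least 5 TPM and the 8 of smallest p, and of each of 22 lists the called members or, with fewer than 2, the 2 of largest ratio with at least 5 TPM. Genes called in opposite directions against pUC19 were also to be named, and there were 0. The comparison, lists and markers were chosen with earlier results of these data known. GC content came from GENCODE v44 transcripts (97.4% of genes) and promoter class from its start sites (95.3%), where CpG-rich means at least 55% GC and a CpG ratio (observed over expected) of 0.6 or more. Shared sequence was counted as the share of 50-base windows of a gene's transcript found in transcripts of another gene. Alternatives were another pseudocount, TMM scaling, totals without the DNMT1 row, 2 filters, another threshold, thinning, removal of a loess trend (span 0.3) on GC content and length, and fits that allow for spread between libraries. A few genes that the rule named are not reported here.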

Additional observations from a re-analysis of the deposited data

Results flagged for a closer look

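Of the 104 named genes, 25 were called between the DNMT1 and EGFP libraries while the levels lay on opposite sides of pUC19 and 1 of the 2 was called against it. Genes called in opposite directions against pUC19 numbered 0. For some of the 25, 1 of the 2 libraries lay close to pUC19, so opposite sides do not mean opposite changes. The log2 ratio of EGFP over pUC19 was -0.05 for HSPB1, 0.06 for ZNF19, 0.09 for LRRC25 and -0.13 for ANKRD37. CRYAB had 0 reads with EGFP and 1 with pUC19. Called genes that were not named were not searched. The call between DNMT1 and EGFP covers the sampling of reads, both comparisons with pUC19 share that library, and fits that allow for spread between libraries are given with the processing.

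Of those reported here, the genes on the upper side with DNMT1 had these log2 ratios of DNMT1 over EGFP: 6.48 for DNMT1, 4.67 for CRYAB, 3.66 for HSPA1B, 3.58 for HSPA1A, 3.17 for H3F3A, 2.83 for DIRAS3, 2.37 for DDT, 2.17 for PDF, 2.0 for ANKRD37, 1.99 for WASH7P, 1.90 for PCSK1N, 1.8 for TPGS1, 1.66 for PPAN, 1.37 for PHLDA2 and 1.26 for HSPB1. For DIRAS3, PHLDA2 and PPAN the call against pUC19 was that of EGFP, which lay lower, with log2 ratios over pUC19 of -2.23, -1.27 and -1.03. For the others it was that of DNMT1, which lay higher.

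The genes on the lower side with DNMT1 had log2 ratios of -3.45 for MIR5047, -1.96 for LRRC25, -1.89 for AKAP3, -1.81 for FLVCR1-AS1, -1.73 for RPL13AP20, -1.59 for ZNF280A, -1.58 for G0S2 and -1.15 for ZNF19. For AKAP3, G0S2 and ZNF280A the call against pUC19 was that of EGFP, which lay higher (1.41, 1.46 and 1.41), and for the others that of DNMT1, which lay lower.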

How the results depend on the processing

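The 278 calls (91 higher, 187 lower) depended mostly on the spread allowed between libraries. With edgeR's exact test and a coefficient of variation between libraries set at 0.1 there were 112 calls (46 and 66), and with 0.2 there were 7 (6 and 1), which were DNMT1, HSPA6, HSPA1B, HSPA1A, H3F3A and DDT higher and DRD5 lower. Taking the spread between the DNMT3A and DNMT3B libraries for that of all groups, edgeR's quasi-likelihood fit gave 148 calls (89 and 59) and DESeq2 40 (15 and 25, without HSPA6 and CRYAB). The quasi-likelihood and DESeq2 fits were called at an adjusted p of at most 0.05, a looser limit than that of the main calls. Their counts therefore cannot be set directly beside the 278, 112 and 7. Some quasi-likelihood calls, such as CRYAB, H3F3A and PHLDA2, held only at this looser limit. A pseudocount of 1 TPM gave 131 (43 and 88), and an adjusted p of at most 0.05 in the main test gave 643 (215 and 428). TMM scaling gave 137 higher and 125 lower, and removal of the GC and length trend 98 higher and 116 lower. Dropping the DNMT1 row from the totals, a minimum of 1 TPM, a minimum of 10 reads and thinning gave 258 to 284 calls. Of the 104 named genes 0 reversed a call under the settings run on them, DNMT3A and FAM221A, not called, changed sign near 0 (DNMT3A -0.06 to 0.08 and FAM221A -0.09 to 0.06), and 54 lost their call with the coefficient of 0.2. Heat shock genes were called in numbers of 3 (coefficient of 0.2) to 7, all higher. No paired analysis was possible because each group had 1 library, and for the same reason no replicate could be left out. Depth limits PLAU, germline genes and small RNAs most, which had few reads.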

Other observations

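Some further genes, chosen after their values were seen and given without a test of any grouping, were higher in the DNMT1 library. CHGA and CHGB, secretory granule proteins like PCSK1N, were at 2.72 against 1.02 TPM and 0.879 against 0.199 TPM with EGFP. The homeodomain factors EMX1 (3.36 against 1.46) and CRX (7.57 against 3.73) and the forkhead factor FOXD3 (7.77 against 3.79) lay in the same direction, in TPM. The lipoprotein APOE was at 6.08 against 1.96 TPM and the extracellular chaperone CLU at 11.7 against 5.29 TPM.

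A few genes called lower were higher with EGFP, DNMT3A and DNMT3B than with either DNMT1 or pUC19. CDKN2AIP, a regulator of the p53 pathway, was at 22.9 TPM with DNMT1 and 24.6 with pUC19, and at 65.7, 70.0 and 71.9 with EGFP, DNMT3A and DNMT3B. SLC25A25, a mitochondrial carrier, was at 25.8 and 16.8 TPM against 60.5, 82.3 and 87.2. KLHL21, an adaptor of a cullin ubiquitin ligase, was at 23.3 and 22.1 TPM against 55.2, 58.9 and 57.7.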
